A study of Mus musculus with 6 samples.

Results

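Interferon-stimulated genes are the genes that a cell switches on when interferon, the secreted alarm signal of antiviral defence, binds its receptor. A list of 37 such genes of the mouse was read out by gene symbol in a deposited table of 18476 genes, and 35 of the 37 had a row there. Mx1 and Mx2 were not analysed here. The rule used the symbols alone and no measured value, but the list was chosen with earlier results of these data known.

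The libraries came from femoral arteries of wild-type C57BL/6 mice that had all been damaged with a guide wire and were taken 3 days later. The fluid placed around the vessel was saline for 3 libraries and vasostatin-2 for the other 3. Vasostatin-2 is an N-terminal fragment of the secretory-granule protein chromogranin A. All 6 libraries carry the same batch label, and no uninjured artery was among them, so each level below is that of an injured vessel. The comparison addressed how gene expression in the injured artery differs after local vasostatin-2. The age and sex of the mice are not given in the sources used here.

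Type I interferons signal through the receptor chains IFNAR1 and IFNAR2 and the kinases JAK1 and TYK2, which phosphorylate STAT2 among others. STAT2 joins IRF9 in the complex ISGF3, which binds the interferon-stimulated response element in the promoters of target genes. Interferon gamma acts through its own receptor and, in the nucleus, through the gamma-activated site. In an injured artery, infiltrating leukocytes as well as resident vessel cells can make and answer interferon, and nucleic acids released by dying cells are a known trigger.

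Promoter letters are shown first because the signals described above act through these elements. RefSeq promoter windows (build GRCm38.p6, from 250 bases before to 50 after each gene's start) were found for 29 of the 35 genes. The core of the interferon-stimulated response element, GAAANNGAA on either strand, was present in 18 of those 29 (62.1%), against 9.76% of the 27025 genes of the same table with a window of 300 bases. The core of the gamma-activated site, TTCNNNGAA on either strand, was present in 10 of 29 (34.5%), against 9.55% of all genes. Both cores end in GAA, so a stretch can count for both. A match is a description of letters and not a measured binding site. Dhx58, Zbp1, Oas2, Usp18, Rtp4 and Parp14 had no entry. The 7 stretches below show how the response element sits upstream of genes of different roles, in the direction of each gene; capitals mark the matches, and a match on the opposite strand reads as a run that begins with TTC. Overlapping matches are joined into a single run of capitals.
Isg15: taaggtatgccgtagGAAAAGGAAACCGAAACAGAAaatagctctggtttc
Ifit1: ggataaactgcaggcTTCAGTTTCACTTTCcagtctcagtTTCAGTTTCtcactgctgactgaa
Oas3: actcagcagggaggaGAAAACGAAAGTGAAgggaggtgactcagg
Bst2: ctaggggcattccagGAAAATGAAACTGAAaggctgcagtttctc
Gbp7: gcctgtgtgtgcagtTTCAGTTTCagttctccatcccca
Gbp2: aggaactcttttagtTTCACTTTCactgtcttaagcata
Rsad2: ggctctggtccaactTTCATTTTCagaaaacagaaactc

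The Isg15 stretch is chr4:156200861-156200911 on the minus strand and holds 3 overlapping matches that begin 78 bases before the start site. Ifit1 (chr19:34640765-34640828, plus strand) also holds 3 matches, the first of them 109 bases before the start. Oas3 (chr5:120777705-120777749, minus) and Bst2 (chr8:71537573-71537617, minus) each hold 2 overlapping matches. Gbp7 (chr3:142530269-142530307, plus), Gbp2 (chr3:142620590-142620628, plus) and Rsad2 (chr12:26456548-26456586, minus) hold 1 match each in the stretch shown. The response element core was not found in the windows of Irf1, Irf7, Irf8, Irf9, Oasl1, Oasl2, Ifit2, Cmpk2, Isg20, Ifi35 and Xaf1, which says only that these letters are not in those windows. Of these, Irf1, Irf8, Ifit2, Isg20 and Ifi35 held the gamma-activated core instead. The Irf8 stretch, chr8:120736167-120736215 on the plus strand, is shown as an example of that core. Any link between the core and the levels across libraries was not tested. Capitals mark the first of the Irf8 matches, 171 bases before the start.
Irf8: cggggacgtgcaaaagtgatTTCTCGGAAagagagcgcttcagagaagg

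In the injured arteries the 35 genes with a row were present at readily measured levels. All 35 genes passed the filter on low counts, at mean levels between 23.3 and 905 CPM, a count relative to the size of its library. On the TPM scale, which also divides by gene length and so allows genes to be compared, the 35 means ran from 22.4 for Cmpk2 to 3061 for Ifitm3, with a median of 69.6. Ifitm3 was followed by Bst2 at 435 TPM and Irf7 at 373 TPM. Total estimated counts lay between 19333730 and 20105995 per library. At that depth 3 counts correspond to between 0.149 and 0.155 CPM, so counting error was small beside the differences between libraries.

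None of the 35 genes passed the test between treatments. The test was the quasi-likelihood test of edgeR with Benjamini-Hochberg adjustment over 14557 genes, of which 0% were called at an adjusted p of 0.05. The lowest adjusted p among the 35 was 0.681 and the lowest of any gene was 0.198. At an unadjusted p of 0.05 there was 1 of the 35 (2.86%), Rsad2, which was lower with vasostatin-2, against 7.14% of all genes in both directions and 3.85% lower. The 3 values of each group did not overlap for 1 of the 35 (2.86%), again Rsad2, against 12.8% of all genes in both directions and 6.72% lower. DESeq2 run on the same counts called 0 of the 35 and 0.776% of all genes. In the authors' deposited table, 0 of the 35 had a q-value under 0.05, against 0.533% of the genes there.

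The fold changes were small and split evenly. With vasostatin-2, 18 genes had a log2 fold change above 0 and 17 below, with a median of 0.02 beside -0.0007 over all genes tested. The extremes were -0.78 for Rsad2 and 0.48 for Irf7, and 32 of the 35 lay within 0.3 of 0 on the log2 scale. The 95% intervals included 0 for 34 genes. For 32 genes the interval lay wholly between -1 and 1, so that a doubling or halving of the mean lay outside it. Whether smaller differences lay outside depended on the gene: the interval was -0.05 to 0.30 for Irf9 and -0.96 to 0.71 for Ifit3. For Irf7, Bst2 and Rsad2, which were not among the 32, the interval reached past a 2-fold difference.

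**Figure D1:**
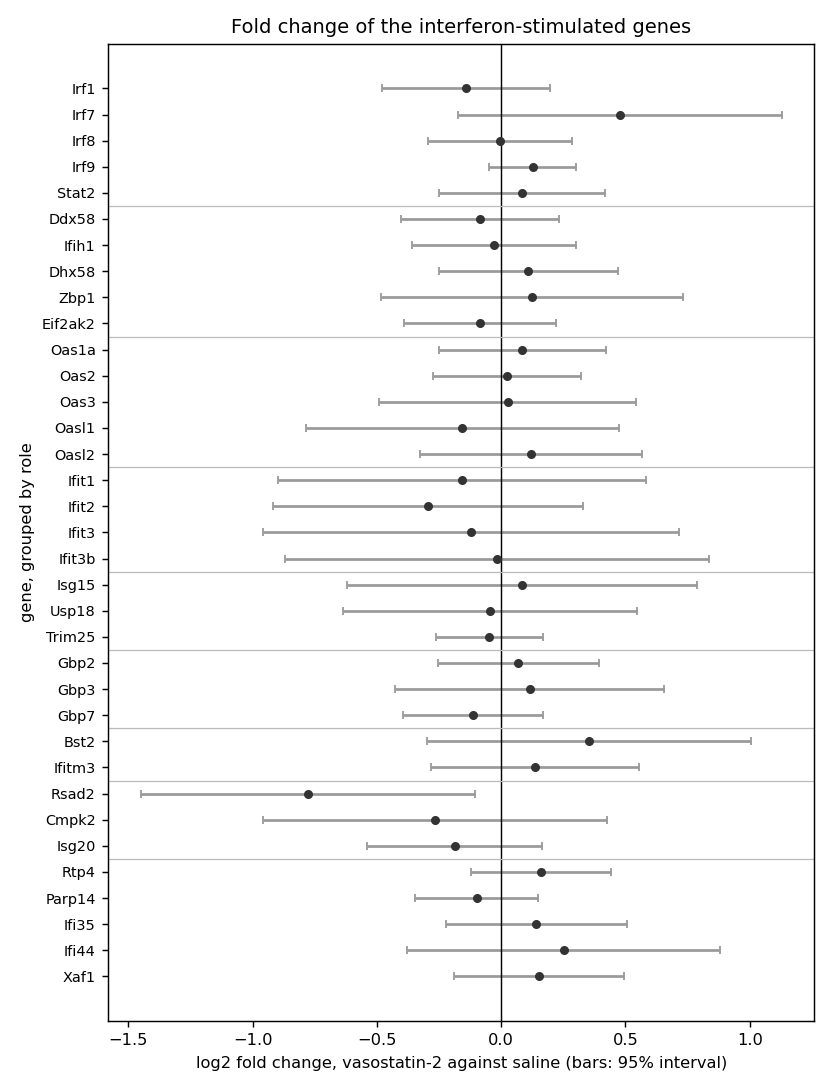
Log2 fold change of each of the 35 interferon-stimulated genes with vasostatin-2 against saline (points), with 95% intervals (bars), grouped by role. The intervals cross 0 for 34 genes, and that of Rsad2 ends at -0.11.

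Differences between libraries of a group were larger than the difference between treatments. The mean log2 CPM of the 35 genes was 6.51 ± 0.30 with saline and 6.53 ± 0.14 with vasostatin-2 (SD, n = 3 each). The median SD within groups was 0.23 on the log2 scale over the 35 genes, against 0.15 over all genes tested and 0.11 over the 7693 genes in the same range of CPM. The 35 genes largely varied together over the libraries: of 595 pairs, 501 had a positive correlation over the 6 libraries, with a median r of 0.65, a description over points that share the same libraries. By library that mean was 6.57, 6.19 and 6.77 in saline replicates 1 to 3, and 6.47, 6.43 and 6.69 with vasostatin-2. Saline replicate 2 was thus the lowest library and saline replicate 3 the highest, and the vasostatin-2 libraries lay between them.

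In saline replicate 2, 29 of the 35 genes had their lowest value, against 23.2% of all genes tested. The 6 exceptions were Irf1, Irf8, Trim25, Rsad2, Isg20 and Parp14. The highest values came from only a few libraries. Saline replicate 3 held the highest value of 13 genes, among them all 4 IFIT genes, Rsad2, Cmpk2, Usp18 and Oasl1. Vasostatin-2 replicate 3 held that of 16 others, among them Irf7, Bst2, Ifitm3, Isg15, Oasl2 and Zbp1. Each of these libraries held the highest value for 15.3% of all genes tested.

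**Figure D2:**
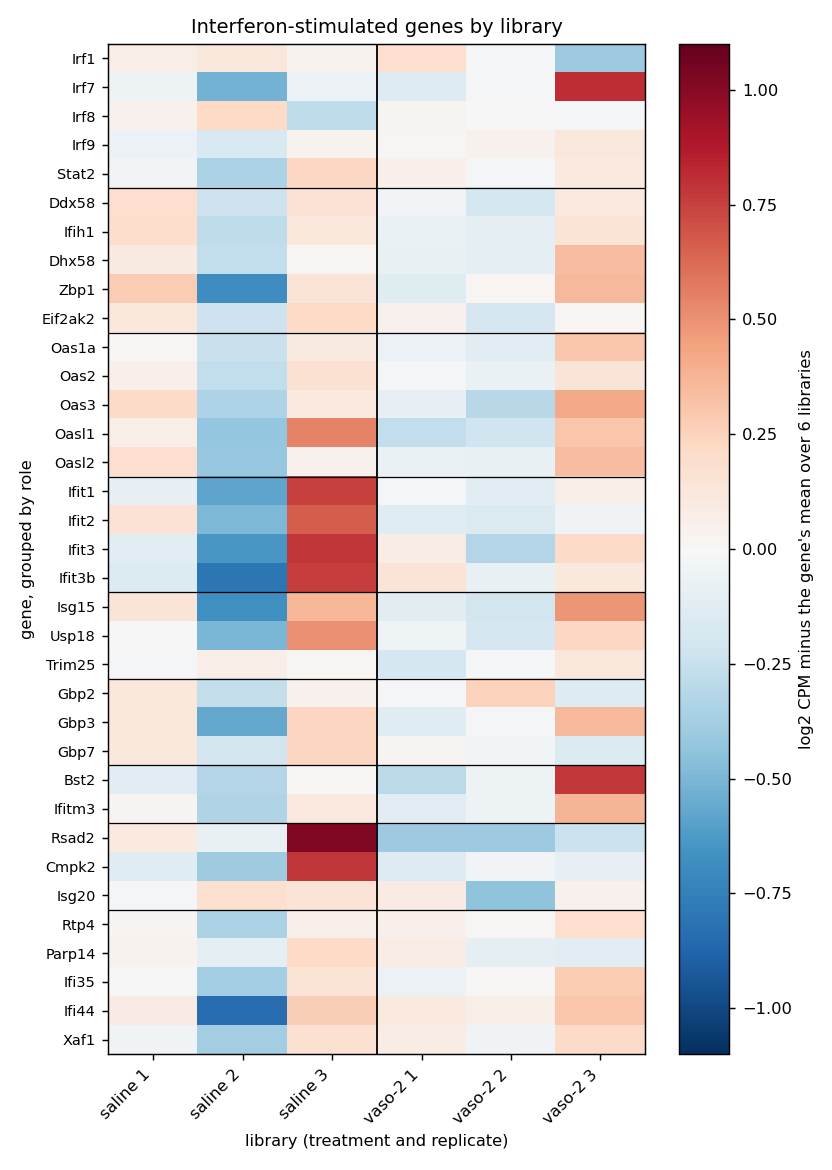
Log2 CPM of each gene in each library minus that gene's mean over the 6 libraries, with genes in rows grouped by role and libraries in columns; red is above the mean and blue below. The column of saline replicate 2 holds the lowest value of 29 genes. The darkest red lies in saline replicate 3 for the IFIT genes, Rsad2 and Cmpk2, and in vasostatin-2 replicate 3 for Irf7 and Bst2.

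The transcription factors of the response came first in the order of roles. Irf7, the factor that amplifies interferon production (gene ID 54123, chr7:141263183-141266499, minus strand), stood at 299.9, 218 and 299 CPM with saline and at 283, 307 and 549 CPM with vasostatin-2. Vasostatin-2 replicate 3 was far above every other library, and the remaining 2 libraries of that group lay within or just above the saline values. The log2 fold change was 0.48 (SE 0.27, 95% interval -0.17 to 1.13; edgeR adjusted p = 0.760), and it was 0.12 without vasostatin-2 replicate 3.

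Irf9, the DNA-binding subunit of ISGF3 (chr14:55603985-55610030, plus strand), stood at 97.0, 90.3 and 104 CPM with saline and at 102, 105 and 111 CPM with vasostatin-2. The groups overlapped only slightly, through saline replicate 3, and the log2 fold change was 0.13 (SE 0.07; edgeR adjusted p = 0.763). Its partner Stat2 averaged 152 ± 29.7 CPM (SD, n = 3) with saline and 160.5 ± 6.85 CPM (SD, n = 3) with vasostatin-2. Irf1, an early target of interferon gamma, averaged 78.9 ± 2.38 and 71.6 ± 14.2 CPM (SD, n = 3 each), with its lowest value, 56.4 CPM, in the same vasostatin-2 replicate 3 where Irf7 was highest. Irf8, a factor of myeloid and dendritic cells, ran against the family: it was highest in saline replicate 2 at 129 CPM and lowest in saline replicate 3 at 91.5 CPM. Its group means were nearly equal, with a log2 fold change of -0.00 (SE 0.12).

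Among the sensors of foreign or misplaced nucleic acid, Zbp1 (chr2:173206612-173218922, minus strand), which binds left-handed Z-form nucleic acid and can start necroptosis, was the most abundant at 171.5 TPM. It stood at 129, 66.3 and 117 CPM with saline and at 97.0, 108 and 136 CPM with vasostatin-2. The low value of saline replicate 2 set it apart from the other libraries, and the groups overlapped (log2 fold change 0.13, SE 0.25; edgeR adjusted p = 0.940). The RNA helicases Ddx58 (RIG-I), Ifih1 (MDA5) and Dhx58 (LGP2) had log2 fold changes of -0.08, -0.03 and 0.11. The RNA-activated kinase Eif2ak2 (PKR), which stops translation, had -0.08. Their SE lay between 0.13 and 0.15, so none differed beyond its error.

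The oligoadenylate synthetase family makes the second messenger that activates RNase L, except for Oasl1, which lacks that activity. Oasl2 (chr5:114896926-114912245, plus strand), the most abundant at 228 TPM, stood at 334.5, 219.9 and 303 CPM with saline and at 280.0, 278 and 373 CPM with vasostatin-2. Saline replicate 2 was lowest and vasostatin-2 replicate 3 highest, with overlap between the groups (log2 fold change 0.12, SE 0.19; edgeR adjusted p = 0.922). Oas1a, Oas2 and Oas3 had log2 fold changes of 0.09, 0.02 and 0.03, and Oasl1, the translational brake on Irf7, had -0.16. Oas1a has a near-identical neighbour, Oas1g, whose longest transcript matched that of Oas1a at 97.5% of 1860 aligned positions, so the split of reads between them is uncertain.

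The 4 IFIT proteins, which bind viral RNA ends and block their translation, had the widest spread of all roles within the saline group. Ifit3 (chr19:34583119-34588982, plus strand) stood at 118, 81.8 and 220.0 CPM with saline and at 135, 102 and 148 CPM with vasostatin-2. Ifit3b next to it stood at 27.1, 17.3 and 51.0 CPM with saline and at 33.3, 28.5 and 32.7 CPM with vasostatin-2. In both genes the lowest and the highest library belonged to the saline group, which enclosed all 3 vasostatin-2 libraries. The longest transcripts of this pair matched at 97.8% of 1700 aligned positions, so their separate counts are uncertain. Their shared order of saline libraries therefore cannot be taken as separate observations.

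Ifit2 (chr19:34550550-34576534, plus strand) stood at 80.8, 51.6 and 115 CPM with saline and at 66.2, 64.8 and 70.7 CPM with vasostatin-2. Ifit1 stood at 80.1, 57.0 and 143 CPM with saline and at 84.4, 78.1 and 88.9 CPM with vasostatin-2. Again both ends of the range were saline libraries. The log2 fold changes were -0.16 for Ifit1, -0.29 for Ifit2, -0.12 for Ifit3 and -0.02 for Ifit3b, with SE between 0.26 and 0.36 and edgeR adjusted p between 0.851 and 0.998. The sign depended on the libraries included: without saline replicate 3 the values became 0.29, 0.03, 0.37 and 0.50. Without vasostatin-2 replicate 2, Ifit3 and Ifit3b also turned, to 0.018 and 0.053.

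**Figure D3:**
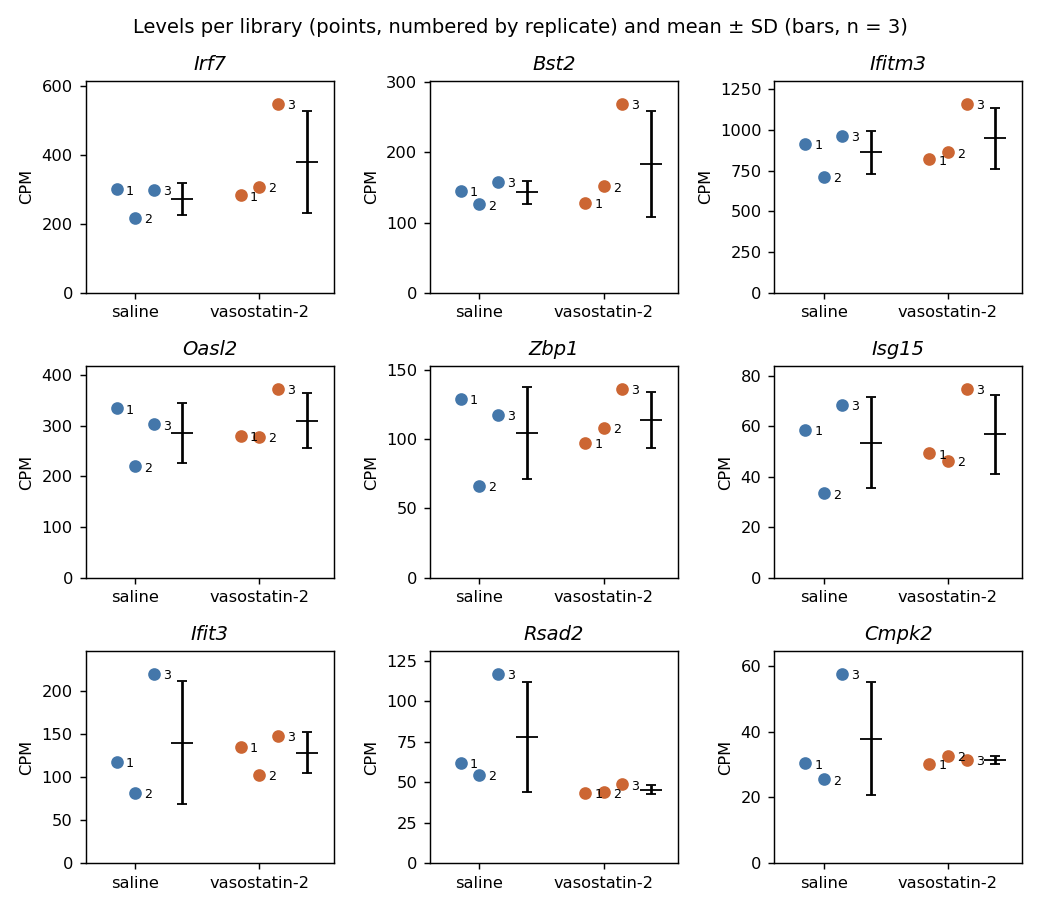
CPM of 9 interferon-stimulated genes in each library, with points numbered by replicate (blue saline, orange vasostatin-2) and the mean ± SD of each group (n = 3) as black bars; axes start at 0. Vasostatin-2 replicate 3 stands alone at the top for Irf7 and Bst2, saline replicate 3 for Ifit3, Rsad2 and Cmpk2, and only for Rsad2 do the groups not overlap.

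Isg15, the ubiquitin-like protein that is conjugated to others during the response (chr4:156199424-156200818, minus strand), stood at 58.7, 33.4 and 68.6 CPM with saline and at 49.3, 46.3 and 74.8 CPM with vasostatin-2. Replicate 3 was the highest library of each group, and the groups overlapped throughout (log2 fold change 0.08, SE 0.30; edgeR adjusted p = 0.965). Usp18, which removes ISG15 and restrains the receptor, had a log2 fold change of -0.04 with its lowest value, 24.4 CPM, in saline replicate 2 and its highest, 48.9 CPM, in saline replicate 3. Trim25, the ligase that activates RIG-I, varied little: its 6 values lay between 126 and 157 CPM, with a log2 fold change of -0.05 (SE 0.09).

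Of the guanylate-binding GTPases, which attack the membranes of intracellular microbes and respond strongly to interferon gamma, Gbp2 (chr3:142620663-142638008, plus strand) was the most abundant at 89.6 TPM. It stood at 114.5, 87.9 and 109 CPM with saline and at 105, 126 and 95.8 CPM with vasostatin-2. Its highest library was vasostatin-2 replicate 2, as for no other of the 35 genes, and the groups overlapped (log2 fold change 0.07, SE 0.14; edgeR adjusted p = 0.940). Gbp3 and Gbp7 had log2 fold changes of 0.11 and -0.11.

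The restriction factors at the membrane were the most abundant members per length. Ifitm3, which blocks viral fusion (chr7:141009590-141010744, minus strand), stood at 913, 710.5 and 962 CPM with saline and at 819, 862.5 and 1161 CPM with vasostatin-2. The top library was again vasostatin-2 replicate 3, and the others of that group lay inside the saline range (log2 fold change 0.14, SE 0.18; edgeR adjusted p = 0.905). Bst2 or tetherin, which holds budding virus at the cell surface (chr8:71534255-71537472, minus strand), stood at 145, 126 and 158.5 CPM with saline and at 128, 152 and 269.6 CPM with vasostatin-2. Only vasostatin-2 replicate 3 exceeded the saline range. Its log2 fold change was 0.35 (SE 0.27; edgeR adjusted p = 0.829) and became -0.04 without that library.

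Rsad2, which encodes viperin, a radical-SAM enzyme that makes a chain-terminating nucleotide (gene ID 58185, chr12:26442743-26456452, minus strand), stood at 61.9, 54.4 and 117 CPM with saline and at 43.6, 43.7 and 48.8 CPM with vasostatin-2. Every saline library was above every vasostatin-2 library, although saline replicate 3 stood far above the other 2. The means were 77.8 ± 34.2 and 45.4 ± 2.98 CPM (SD, n = 3 each). The log2 fold change was -0.78 (SE 0.28, 95% interval -1.45 to -0.11), with an unadjusted p of 0.0293 and an adjusted p of 0.681 by edgeR. DESeq2 gave an adjusted p of 0.252. The authors' deposited table gave a log2 fold change of -0.78, a p-value of 0.00503 and a q-value of 0.308. The difference therefore did not pass the adjusted threshold in any of these 3. Leaving out saline replicate 3 moved the log2 fold change to -0.36 and leaving out saline replicate 2 moved it to -0.98.

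Cmpk2, the kinase that supplies the nucleotide viperin converts, is the neighbour of Rsad2 in the opposite orientation (chr12:26469215-26479837, plus strand). It stood at 30.4, 25.5 and 57.6 CPM with saline and at 30.3, 32.7 and 31.4 CPM with vasostatin-2. It shared the high value of saline replicate 3 but not the separation of the groups: its log2 fold change was -0.27 (SE 0.29; edgeR adjusted p = 0.882) and turned to 0.17 without that library. Isg20, an exonuclease of single-stranded RNA (chr7:78913396-78920396, plus strand), stood at 22.8, 26.1 and 25.4 CPM with saline and at 24.5, 17.0 and 23.8 CPM with vasostatin-2. Here vasostatin-2 replicate 2 was low, and the log2 fold change was -0.19 (SE 0.15; edgeR adjusted p = 0.832).

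Among the remaining induced proteins, Rtp4, a chaperone of G-protein-coupled receptors that also binds RNA (chr16:23520210-23614222, plus strand), stood at 131, 100.3 and 133 CPM with saline and at 133, 129 and 145 CPM with vasostatin-2. Apart from the low saline replicate 2 and the higher vasostatin-2 replicate 3, the libraries were nearly level (log2 fold change 0.16, SE 0.12; edgeR adjusted p = 0.817). Ifi44 had the lowest saline replicate 2 value relative to its other libraries in this role, 32.5 CPM against 60.8 to 71.9 CPM in the rest. Ifi44, Ifi35 and Xaf1, an antagonist of the apoptosis inhibitor XIAP, had log2 fold changes of 0.25, 0.14 and 0.15, and the ADP-ribosyltransferase Parp14 had -0.10. None of these passed the test.

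The direction of most of the 35 genes depended on which libraries were included. The same share over all genes tested is not given here, so this describes the 35 genes only. When each library was left out in turn, 10 of the 35 genes kept the sign of their log2 fold change in all 6 fits: Irf7, Irf9, Ddx58, Gbp7, Rsad2, Isg20, Rtp4, Parp14, Ifi35 and Xaf1. The median over the 35 was -0.12 when saline replicate 2 was left out and 0.17 when saline replicate 3 was. It was -0.05 with vasostatin-2 replicate 3 left out.

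**Figure D4:**
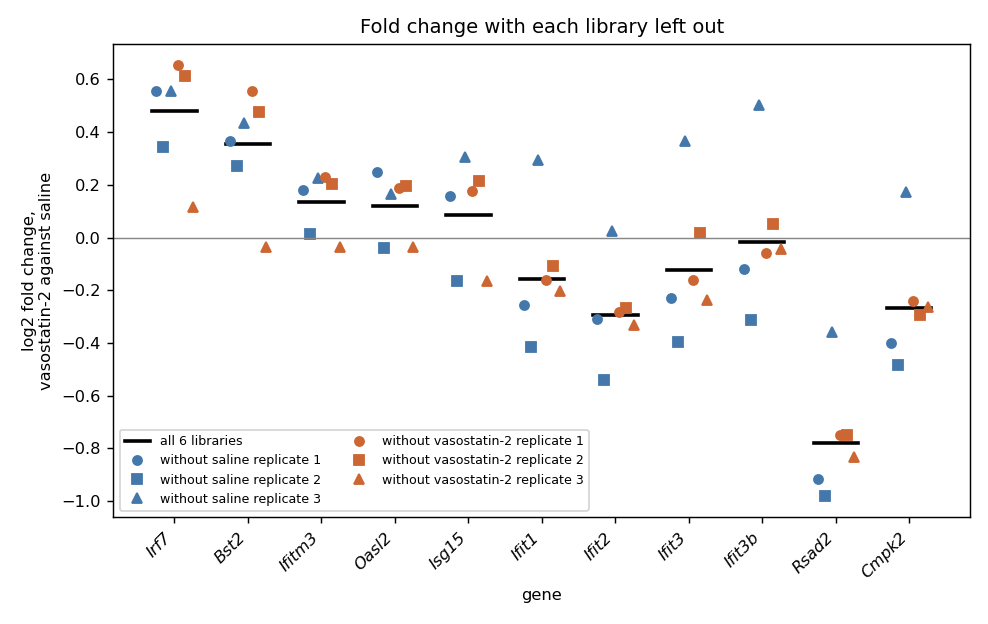
Log2 fold change of 11 interferon-stimulated genes with all 6 libraries (black bars) and with each library left out (symbols; blue for saline, orange for vasostatin-2, shape by replicate). Leaving out saline replicate 3 (blue triangles) lifts the IFIT genes and Cmpk2 above 0, and leaving out vasostatin-2 replicate 3 (orange triangles) brings Irf7 to 0.12 and Bst2 to -0.04.

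The genes that make and transmit the signal were read from 7 lists of related genes, and none of them passed the adjusted test either. Of 21 interferon ligands, 6 had a row, and none passed the filter on low counts. Ifnb1, the first interferon made in most cells, had 3 counts, all in saline replicate 3. Ifng, the gamma interferon of T and NK cells, had 19, 4 and 6 counts with saline and 3, 8 and 6 with vasostatin-2. Ifnz, a gene of the type I family, had 9.98 estimated counts in vasostatin-2 replicate 3, 1.94 in saline replicate 2 and 0 elsewhere, and Ifna1, Ifna7 and Ifna13 had 1 count each in a single library. The 6 ligands were thus far less abundant than the 35 induced genes, with Ifng reaching 0.96 CPM at most. The other ligands were not analysed here.

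No receptor or receptor kinase measured here reached an unadjusted p of 0.05. Ifnar2 (196 TPM) stood at 148, 163 and 137 CPM with saline and at 144.5, 151 and 156.5 CPM with vasostatin-2, with no separation of groups (log2 fold change 0.01, SE 0.08). Jak1, the kinase shared by the receptors, stood at 332, 312 and 332 CPM with saline and at 304, 295 and 296 CPM with vasostatin-2. All 3 vasostatin-2 values of Jak1 lay below the saline values, by a log2 fold change of -0.12 (SE 0.07; edgeR adjusted p = 0.750). The other two kinases, named after their values were seen, had log2 fold changes of -0.25 for Jak2 and 0.10 for Tyk2, and the groups of Tyk2 did not overlap. Of the 6 receptor genes 2 had log2 fold changes above 0 and 4 below. The lowest was that of Ifnlr1, the receptor chain of interferon lambda, at -1.25 (SE 0.59; edgeR adjusted p = 0.710). Its level was low, at 1.36, 1.65 and 0.399 CPM with saline and 0.715, 0.350 and 0.357 CPM with vasostatin-2, and the groups overlapped through saline replicate 3.

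Upstream, 12 genes of nucleic acid sensing were measured, 7 above 0 and 5 below. The most abundant, Sting1, the adaptor of DNA sensing, stood at 145, 122 and 133 CPM with saline and at 128, 119 and 110.5 CPM with vasostatin-2 (log2 fold change -0.16, SE 0.09; edgeR adjusted p = 0.745). Myd88, the adaptor of Toll-like and interleukin-1 receptors, was the only gene of that list at an unadjusted p of 0.05. It stood at 103, 101 and 113 CPM with saline and at 98.6, 83.2 and 90.1 CPM with vasostatin-2, without overlap (log2 fold change -0.22, SE 0.09; edgeR adjusted p = 0.684). The feedback inhibitors, 6 genes with 2 above 0 and 4 below, were led by Ptpn6, the phosphatase SHP-1, at 148, 156 and 131.5 CPM with saline and 147, 158 and 172 CPM with vasostatin-2 (log2 fold change 0.13, SE 0.09).

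Class I antigen presentation is also induced by interferon. Of its 12 genes 11 had a log2 fold change above 0, with a median of 0.14. B2m, the light chain of class I molecules, stood at 2192, 2777 and 2381 CPM with saline and at 2516, 3004 and 3187 CPM with vasostatin-2 (log2 fold change 0.24, SE 0.15; edgeR adjusted p = 0.764). Saline replicate 2 was the highest saline library for B2m, the reverse of its place for 29 of the interferon-stimulated genes. The class I list was mixed in this. Saline replicate 2 was also the highest saline library for H2-K1, H2-D1 and Psme1, but the lowest for Tap1, Tap2, Psmb10 and Nlrc5. It lay between the other saline libraries for Tapbp, Psmb8, Psmb9 and Psme2. Tap2, a subunit of the peptide transporter, stood at 80.9, 70.6 and 73.0 CPM with saline and at 82.4, 86.5 and 92.3 CPM with vasostatin-2. Its groups did not overlap, and it did not pass the adjusted threshold (log2 fold change 0.22, SE 0.08; edgeR adjusted p = 0.681). Markers of several cell types differed beside this list, none past the adjusted threshold. Over all genes tested, 12.8% had groups without overlap. Of 8 macrophage markers 6 were above 0. Adgre1, C1qa, C1qb and C1qc were higher without overlap, with log2 fold changes of 0.50, 0.35, 0.34 and 0.40. Mrc1 and Mertk were below 0, at -0.05 and -0.27. Of 5 adventitial fibroblast markers 4 were above 0, and Pdgfra, Dcn and Lum were higher without overlap, at 0.56, 0.45 and 0.71. Col1a1 was below 0, at -0.16. All 6 neutrophil markers were below 0, with a median of -1.12. All 6 T and NK cell markers were below 0 as well, with a median of -0.49. Of these, Nkg7 and Gzma were lower without overlap, at -0.54 and -0.45. Of 5 inflammatory monocyte markers 2 were above 0 and 3 below. Ccr2 was higher and Chil3 lower without overlap, at 0.50 and -0.84. The summed macrophage markers were at 4022, 4943 and 3988 CPM with saline and at 4712, 5294 and 5340 CPM with vasostatin-2. The summed fibroblast markers were at 12024 to 21001 CPM with saline and 13883 to 17235 CPM with vasostatin-2. Col1a1 supplied most of that sum, at 10609 to 19344 CPM with saline and 11258 to 14963 CPM with vasostatin-2. The summed neutrophil markers were at 286 to 450 CPM with saline and 162 to 318 CPM with vasostatin-2. The part of these cell types in the class I values was not tested.

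Of the interferon-induced chemokines, Cxcl10, which draws T cells, stood at 36.3, 17.6 and 62.6 CPM with saline and at 15.7, 23.7 and 16.8 CPM with vasostatin-2. Saline replicate 3 was again the highest library, and saline replicate 2 lay among the vasostatin-2 values. The log2 fold change was -1.05 (SE 0.43), with an unadjusted p of 0.0468 and an adjusted p of 0.693 by edgeR. It was -0.52 without saline replicate 3. Cxcl9 had a log2 fold change of -0.41, and Cxcl11 was not analysed here.

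The labels name vascular smooth muscle cells, but RNA came from the whole artery, and markers of several cell types were abundant. In such bulk samples fewer cells of a type and less RNA per cell cannot be told apart. Summed over each list, the contractile smooth muscle markers ranged from 909 to 2264 CPM, the macrophage markers from 3988 to 5340 CPM and the endothelial markers from 1583 to 1919 CPM. The summed common leukocyte markers were nearly level, at 1142 to 1427 CPM. Their sum was highest in saline replicate 2, where the interferon-stimulated genes were lowest. Taken singly, only Cd53 was highest there. Ptprc was highest in saline replicate 1, Laptm5 in vasostatin-2 replicate 2 and Coro1a in vasostatin-2 replicate 1.

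The libraries that set the pattern also differed in tissue markers. Saline replicate 2 had the highest sum of 5 red cell markers, 12344 CPM, where saline replicates 1 and 3 had 1835 and 2498 CPM and the vasostatin-2 libraries 2357, 380 and 310.0 CPM. Saline replicate 3, the library with the high IFIT, Rsad2 and Cmpk2 values, had the highest sum of 5 Schwann and nerve markers, 576 CPM, against 52.1 to 86.1 CPM in the rest. Vasostatin-2 replicate 3, with the high Irf7 and Bst2 values, had the highest sum of 5 skeletal muscle markers, 808 CPM, against 46.5 to 79.1 CPM in the rest. The part of these markers in the levels of the interferon-stimulated genes was not tested.

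Plasmacytoid dendritic cells are known for high Irf7 and Bst2, and Bst2 itself stands in their list of 8 markers. The sum of the list was 299 to 325 CPM with saline and 283, 290.5 and 424 CPM with vasostatin-2, and Bst2 supplied 269.6 CPM of the last value. Siglech, a defining marker of these cells, was at 3.84, 5.01 and 3.44 CPM with saline and at 4.24, 3.25 and 2.50 CPM with vasostatin-2. Cox6a2, which is also a muscle isoform of a respiratory chain subunit, was at 1.52, 2.53 and 1.74 CPM with saline and at 1.74, 1.45 and 6.12 CPM with vasostatin-2. Vasostatin-2 replicate 3 was thus the lowest library for Siglech and the highest for Cox6a2 and Bst2, and the other 5 markers had their highest value in other libraries. Tcf4, second to Bst2 in mean CPM, was at 134, 132 and 134 CPM with saline and at 121, 109 and 119 CPM with vasostatin-2. It was lower without overlap (log2 fold change -0.20; edgeR unadjusted p = 0.0205, adjusted p = 0.65). Of the 7 markers tested, Bst2 and Cox6a2 had log2 fold changes above 0, and 5 were below. All 8 markers were detected, but Klk1 did not pass the filter on low counts, at 0.253 to 0.551 CPM. Ly6d was also low, at 0.306 to 1.14 CPM. The part of these cells in the Irf7 and Bst2 values was not tested.

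**Figure D5:**
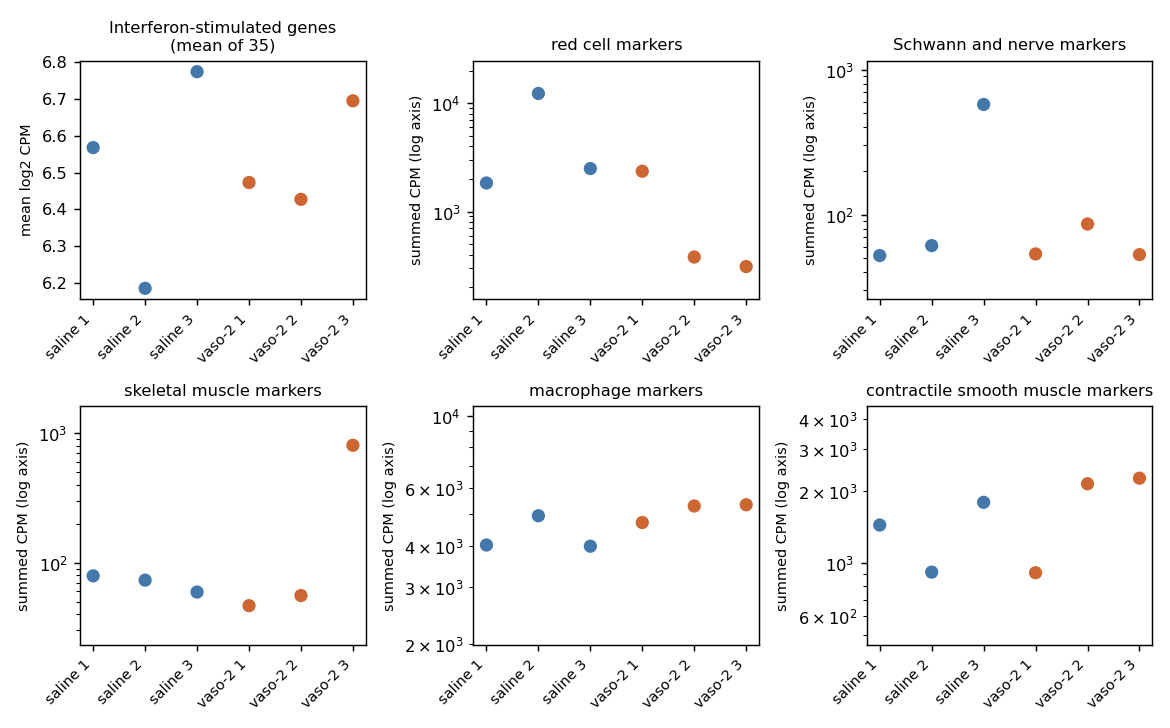
Mean log2 CPM of the 35 interferon-stimulated genes in each library (first panel) and the summed CPM of 5 marker lists (other panels, log axes; blue saline, orange vasostatin-2). Saline replicate 2 is lowest in the first panel and highest for red cell markers, saline replicate 3 is highest for Schwann and nerve markers, and vasostatin-2 replicate 3 is highest for skeletal muscle markers.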

How the data were processed

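RNA was extracted from injured femoral arteries, enriched for mRNA with oligo(dT) beads and sequenced on a BGISEQ instrument, per the labels' protocols. HISAT2 2.1.0, DESeq2 1.26.0 and build GRCm38.p6 are named in the submitters' processing notes. The counting tool and strandedness are not given in the sources used here, so reads of genes that overlap on either strand may be mixed. The authors deposited an estimated count per gene and library, of which 65.6% were whole numbers. TPM values deposited by the authors served to compare levels between genes and as an alternative input. Where the authors' deposited table is named, its log2 values are the authors' own and its p-values and q-values come from DESeq2, per the file headers.

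Estimated counts were rounded, filtered with filterByExpr (14557 genes left) and scaled by TMM, with factors of 0.985 to 1.01. Treatment was the only term of the quasi-likelihood fit in edgeR 4.0.16 (R 4.3.3), with robust dispersions, a biological coefficient of variation of 16.1% and Benjamini-Hochberg adjustment over all genes tested. A positive log2 fold change means higher with vasostatin-2. CPM uses the TMM-scaled library sizes. DESeq2 1.42.0 and limma 3.58.1 were alternatives, with other scalings, filters, TPM with pseudocounts of 1 and 0.1, an adjusted threshold of 0.1, a replicate block and left-out libraries. Bias-adjusted dispersions were added after seeing the data. Only the edgeR fit was also run on simulated counts with known changes, and the outcome is not given here. Libraries of a group differed by more than counting noise, so none was counted as a duplicate. The design text calls the libraries biological replicates, and p-values set the difference between treatments against the spread between these samples. An exact test of 3 against 3 cannot go below p = 0.1, so single values were not tested that way.

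The 35 genes and all lists were chosen with earlier results of these data known. Values of every library were given for the 3 genes with the smallest unadjusted p in each direction, the most abundant gene of each of 9 roles by TPM, the 3 genes with the widest spread, and, of each pathway list, the most abundant gene and any at an unadjusted p of 0.05. Bst2, Cmpk2, Ifit1, Ifnlr1, Jak2, Tyk2, Ifnz and the cell type markers named singly were added after their values were seen. An item that the lists cover is not reported here.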

Additional observations from a re-analysis of the deposited data

How the results depend on the processing

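With 3 libraries a group and the spread between the saline libraries, the 95% intervals of Irf7, Bst2 and Rsad2 reached past a 2-fold difference. No interferon-stimulated gene was called under any of the other scalings, filters, tests, thresholds or left-out libraries that were run. Over all genes the count called was 113 with DESeq2 and 0 to 2 with single libraries left out. Of the 35 genes, 0 to 3 reached an unadjusted p of 0.05 with single libraries left out, and the 3 came without saline replicate 2, where 11.2% of all genes did so against 8.57% of the 35. The number without overlap was 1 to 5 with single libraries left out; 5 is 14.3% of the 35, against 30.1% of all genes without saline replicate 2 and 22.8% without saline replicate 3. It was 6 (17.1%) without both replicates 3, against 33.2% of all genes. The median log2 fold change of the 35 was -0.06 with limma-voom, where 13 genes were above 0.

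Named genes changed sign mainly when a library was left out; the cause was not tested beyond the values of those libraries in the text. Their log2 fold changes over the 6 fits ran from -0.41 to 0.29 for Ifit1, -0.54 to 0.03 for Ifit2, -0.40 to 0.37 for Ifit3, -0.31 to 0.50 for Ifit3b, -0.48 to 0.17 for Cmpk2, -0.12 to 0.31 for Zbp1, -0.039 to 0.25 for Oasl2, -0.16 to 0.31 for Isg15, -0.048 to 0.15 for Gbp2, -0.036 to 0.23 for Ifitm3, -0.035 to 0.56 for Bst2 and -0.044 to 0.079 for Ifnar2. Without both replicates 3 they were 0.25 for Ifit1, 0.25 for Ifit3, 0.48 for Ifit3b, 0.17 for Cmpk2, 0.19 for Gbp2 and -0.073 for Ifnar2, and Cxcl10 was at -0.45. Isg15 was at -0.13 with limma-voom, and Ifit3b at 0.11 on the log2 TPM scale with either pseudocount.

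With replicate number as a replicate block, 0 genes were called, 1 of the 35 was at an unadjusted p of 0.05, and the median of the 35 was 0.03. Ifit3b was at 0.11 there, against -0.02 without the block. Same-numbered libraries did not deviate together (r of -0.119, 0.025 and 0.027 for numbers 1, 2 and 3), and the labels do not say that a number marks a shared animal or day.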
